A study of Mus musculus with 3 samples.

Results

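The collagen genes of adult lung endothelial cells (ECs) were examined in bulk RNA-seq values. The members were all rows of the deposited gene table whose symbol is Col, a number, a and a number, which gave 44 of 24346 genes, and no measured value entered that choice. They were grouped by the known structure of the protein into 11 fibrillar, 8 basement membrane and 25 other collagens. Lung ECs of wild type C57BL/6J mice, male and 6 to 8 weeks old by the study's methods, were sorted straight from the tissue and gave the libraries S38, S44 and S52. The labels name no transgene or treatment for them. By the study's methods a VE-cadherin antibody was injected to label the vessels before dissociation with collagenase and dispase. The cells were then stained for CD31, CD45 and podoplanin and sorted. For the bulk libraries of all organs the study names CD31 as the sorting antibody. It states a gate negative for CD45 and podoplanin for kidney ECs, and the full gate for lung is not given in the sources used here. All 3 libraries are of 1 condition, so no contrast between conditions was tested and no p-value is given. An exact sign-flip test over 3 libraries could not give a two-sided p below 0.25. The sources used here do not say whether the libraries come from separate animals, so the SDs give the spread between these libraries, which may be technical.

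Collagens are secreted or membrane proteins built from 3 chains that wind into a triple helix of Gly-X-Y repeats. Fibrillar collagens assemble into the banded fibrils that give tissue its tensile strength and are known mainly as products of fibroblasts. Type IV collagen forms the sheet-like network of basement membranes, and the capillary endothelium of the lung lies on such a membrane, in places fused with that of the alveolar epithelium. The chains encoded by *Col4a1* and *Col4a2* are the common form, and those of *Col4a3* to *Col4a6* occur in specialised membranes such as that of the glomerulus.

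Values are FPKM, fragments scaled to gene length and library size by the authors, so levels of different genes can be set side by side per length. Where 3 values follow each other they are those of S38, S44 and S52 in that order, and ± gives the SD over these libraries. The libraries were estimated from the steps of their low values to hold 36100000 fragments for S38, 40100000 for S44 and 33600000 for S52. At these depths every collagen at a mean of 1 FPKM or above rested on an estimated 128 fragments or more in each library. Defining endothelial transcripts were abundant, with all 10 endothelial markers detected and summed levels of 6291 to 7058 FPKM. S52 stood apart from the other libraries in markers of other cells, with a summed level of 4 platelet genes of 37.96 FPKM against 1692 in S38 and 1345 in S44, and of 5 alveolar type 2 genes of 760 FPKM against 3756 and 3156. Transcripts of fibroblasts and mural cells, which are among the other cells that make matrix, were also present. Of the genes for the antigens that the kidney gate selects against, *Ptprc*, the CD45 gene, was at 0.434 to 4.30 FPKM and *Pdpn*, the podoplanin gene, at 1.84 to 3.09 FPKM. *Cd68*, a macrophage gene, was higher, at 16.7 to 27.4 FPKM. *Prox1*, which defines lymphatic ECs, averaged 0.301 ± 0.258 FPKM, while *Lyve1*, also used as a lymphatic marker, was at 390 to 597 FPKM. Summed levels were 401 to 2767 FPKM for 5 airway genes, 17.6 to 31.1 FPKM for 4 leukocyte genes, 414 to 623 FPKM for 4 lymphatic genes and at most 6.14 FPKM for 4 mesothelial and 3.69 FPKM for 4 Schwann cell genes. The 8 fibroblast markers, none of them a collagen, summed to 118 FPKM in S38, 104 in S44 and 75.7 in S52, and the 8 mural markers to 228, 134 and 215 FPKM. In a bulk sample, fewer cells of a type and less RNA per cell cannot be told apart, and the part of these cells in the collagen values was not tested.

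Detection was set at 1 FPKM or more in the mean over the libraries. Of the 44 collagens, 17 (38.6%) were detected, against 48.3% of all genes in the table. The basement membrane class had 4 of 8 members detected, the fibrillar class 5 of 11 and the other collagens 8 of 25. *Col4a1* and *Col4a2* exceeded all other members in every library, and *Col6a1*, *Col1a2* and *Col6a2* were the other members at a mean of 10 FPKM or above. The median over all 44 members was 0.451 FPKM, and over all genes it was 0.784 FPKM. In the order of levels, 13 of the 16 neighbouring pairs of detected collagens had overlapping library values, so most of that order lies within the spread between libraries. The 3 steps without overlap were those from *Col4a1* to *Col4a2*, from *Col4a2* to *Col6a1*, where the mean dropped 9.03-fold, and from *Col15a1* to *Col5a1*.

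**Figure D1:**
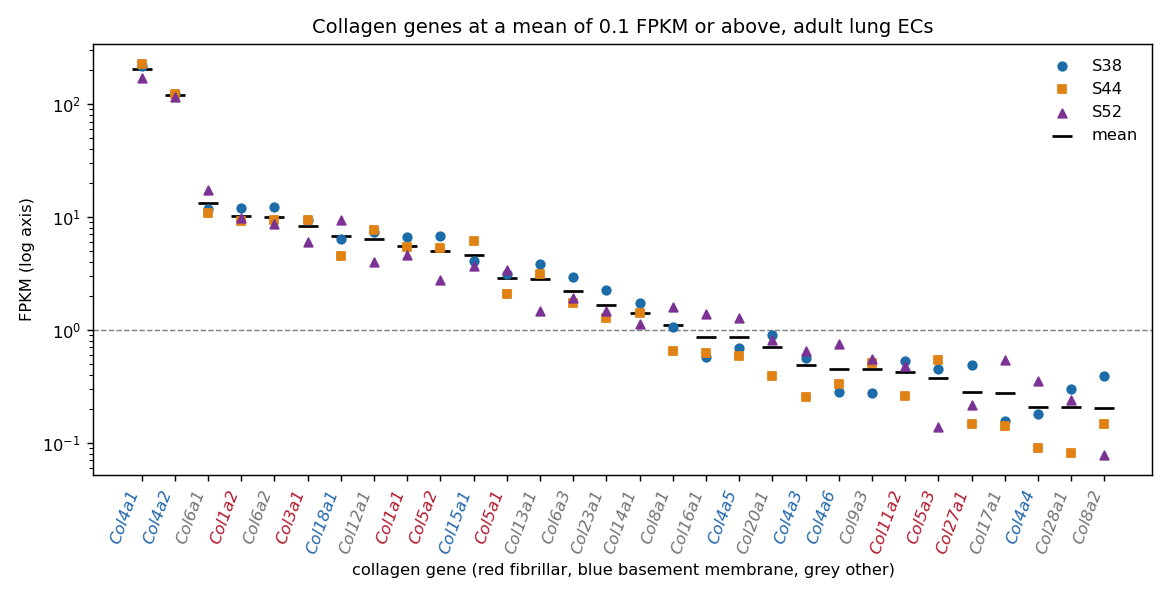
FPKM on a log axis of the collagen genes averaging 0.1 FPKM or more, ordered by mean; points are the 3 libraries, the bar is their mean and the dashed line marks 1 FPKM, with names in red for fibrillar, blue for basement membrane and grey for other collagens. *Col4a1*, at 170 to 228 FPKM, and *Col4a2*, at 115 to 123 FPKM, stand above all others, the next being *Col6a1* at 10.8 to 17.3 FPKM.

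The genes of the type IV chains lie in head-to-head pairs that are read in opposite directions from neighbouring starts. *Col4a1* is on the minus strand of chromosome 8 (GRCm38, 11198423 to 11312826) and *Col4a2* on the plus strand (11312805 to 11449287), and their annotated first exons overlap by 22 bases. *Col4a4* and *Col4a3* on chromosome 1 have starts 72 bases apart, and *Col4a6* and *Col4a5* on the X chromosome 1309 bases apart. The windows around the starts are shown for the abundant pair and for *Col4a4*, a gene of the same arrangement that was below 1 FPKM. Those of the pair are the sequence that the most abundant collagen transcripts start from. The windows shown are from RefSeq (GRCm38.p6) and run 5′ to 3′ on each gene's own strand, from chr8:11312777-11313076 for *Col4a1*, chr8:11312555-11312854 for *Col4a2* and chr1:82586800-82587099 for *Col4a4*. Capitals mark CCAAT and GGGCGG, the letters of the CCAAT box and the GC box, on either strand, and the *Col4a4* window holds none. The windows of *Col4a5* (1 CCAAT and 1 GGGCGG) and *Col4a6* (1 GGGCGG), not shown, do hold such matches. Those genes were also below 1 FPKM in the mean, so the matches are not limited to the abundant pair.
Col4a1: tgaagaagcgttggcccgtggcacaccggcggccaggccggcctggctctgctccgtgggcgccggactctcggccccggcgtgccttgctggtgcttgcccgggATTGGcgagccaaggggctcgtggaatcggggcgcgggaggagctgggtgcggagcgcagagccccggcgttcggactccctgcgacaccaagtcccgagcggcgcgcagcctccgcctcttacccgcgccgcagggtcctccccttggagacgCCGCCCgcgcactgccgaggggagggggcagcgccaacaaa
Col4a2: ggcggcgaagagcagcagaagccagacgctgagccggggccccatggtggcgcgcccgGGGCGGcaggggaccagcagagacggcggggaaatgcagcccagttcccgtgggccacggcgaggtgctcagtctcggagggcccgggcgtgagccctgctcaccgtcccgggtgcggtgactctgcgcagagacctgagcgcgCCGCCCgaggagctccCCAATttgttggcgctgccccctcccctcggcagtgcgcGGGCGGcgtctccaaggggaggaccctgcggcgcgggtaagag
Col4a4: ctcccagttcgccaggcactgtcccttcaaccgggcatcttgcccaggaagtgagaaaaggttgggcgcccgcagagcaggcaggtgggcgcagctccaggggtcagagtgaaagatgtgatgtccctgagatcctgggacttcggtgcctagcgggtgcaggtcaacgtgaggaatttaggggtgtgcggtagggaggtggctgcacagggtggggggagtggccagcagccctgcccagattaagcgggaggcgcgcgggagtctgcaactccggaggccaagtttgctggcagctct

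The windows of *Col4a1* and *Col4a2* share 78 bases, read on opposite strands, and the only marked match inside them is 1 GGGCGG, which both windows therefore hold. Of the bases, 74.0% in the *Col4a1* window, 73.7% in the *Col4a2* window and 63.3% in the *Col4a4* window are G or C, against a median of 52.7% over all 32851 windows. A TATA box (TATAAA, either strand) is in neither window of the abundant pair. Of the 38 windows of the 35 collagens in that table, 23 (60.5%) hold GGGCGG, against 35.7% of all windows. CCAAT is in 34.2% and TATAAA in 13.2% of the collagen windows, against 37.4% and 13.6% of all. These matches describe letters in a window and do not show that a factor binds there.

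The basement membrane collagens held 81.9% ± 1.64 (SD, n = 3 libraries) of the summed collagen FPKM. *Col4a1* was at 219 FPKM in S38, 228 in S44 and 170 in S52, or 206 ± 31.0 FPKM (SD, n = 3), above 98.1% of all genes. *Col4a2* was at 121, 123 and 115 FPKM in the same order, or 120 ± 4.62 FPKM (SD, n = 3), the smallest relative spread of any detected collagen, with an SD of 3.85% of the mean. With the libraries rescaled to equal sums of FPKM its spread was wider, with an SD of 17.6% of the mean and a 1.37-fold range, and still the smallest of the detected collagens. Both chains were lowest in S52, though *Col4a2* was lowest in S44 after that rescaling, and the values of *Col4a1* and *Col4a2* did not overlap. Together they made up 78.6% ± 2.07 (SD, n = 3) of the collagen sum, from 77.1% in S52 to 80.9% in S44.

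The other type IV chains were all below 1 FPKM in the mean, although each was above 0 in every library. *Col4a5*, encoded on the X chromosome, was at 0.696, 0.593 and 1.28 FPKM. *Col4a3* was at 0.561, 0.257 and 0.650 FPKM, *Col4a6* at 0.280, 0.334 and 0.747 FPKM and *Col4a4* at 0.179, 0.0901 and 0.349 FPKM. All 4 chains were thus highest in S52, apart from *Col4a3* with equal sums, which put S38 first. The alveolar type 1 markers *Ager* (43.3, 33.4 and 66.0 FPKM) and *Rtkn2* (0.851, 0.149 and 3.07 FPKM), from epithelium whose basement membrane adjoins that of the capillaries, were also highest in S52, while the other two markers of that list, *Hopx* and *Aqp5*, were lowest there. All 4 were detected, and their summed level was 348, 373 and 273 FPKM. Podoplanin, stained for before the sort, is also a surface protein of alveolar type 1 cells, and its gene *Pdpn* was at 2.39, 1.84 and 3.09 FPKM. The part of alveolar type 1 cells in these values was not tested. Within these head-to-head pairs, *Col4a3* exceeded *Col4a4* and *Col4a5* exceeded *Col4a6* in each library.

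*Col15a1* and *Col18a1*, the multiplexins, encode heparan or chondroitin sulfate carrying collagens of the basement membrane zone, and the end of the *Col18a1* chain is released as endostatin, an inhibitor of vessel growth. *Col18a1* was at 6.39, 4.51 and 9.46 FPKM (mean 6.78 ± 2.50). *Col15a1* was at 4.07, 6.15 and 3.68 FPKM (mean 4.63 ± 1.33). The pair had opposite orders of libraries, since S44 had the lowest *Col18a1* and the highest *Col15a1*. The ranges overlapped, and *Col18a1* was the higher of the pair in S38 and S52 and the lower in S44.

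**Figure D2:**
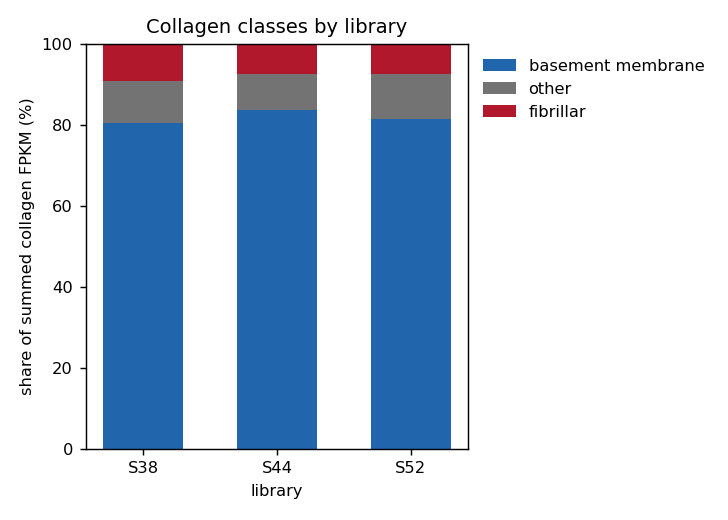
Share of the summed collagen FPKM held by basement membrane, other and fibrillar collagens, stacked to 100% in each library. The basement membrane class holds 80.5% in S38, 83.7% in S44 and 81.4% in S52.

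The fibrillar collagens summed to 39.7 FPKM in S38, 32.3 in S44 and 27.3 in S52, which was 7.96% ± 0.949 (SD, n = 3) of the collagen sum. *Col1a2* and *Col1a1* encode the chains of type I collagen, the main collagen of connective tissue. *Col1a2* was at 11.9, 9.27 and 9.69 FPKM (mean 10.3 ± 1.41) and *Col1a1* at 6.67, 5.40 and 4.65 FPKM (mean 5.57 ± 1.02), and the values of these chains did not overlap. *Col3a1*, the type III chain found with type I in vessel walls and lung, was at 9.47, 9.32 and 5.95 FPKM (mean 8.25 ± 1.99). *Col5a2* and *Col5a1* encode chains of type V collagen, a minor component that nucleates type I fibrils. *Col5a2* was at 6.84, 5.33 and 2.78 FPKM, a 2.46-fold range, and *Col5a1* at 3.11, 2.08 and 3.36 FPKM (mean 2.85 ± 0.678). *Col5a2* and *Col3a1* both had their lowest value in S52, whereas *Col5a1* had its highest there, or in S38 after rescaling to equal sums. Without S52 the mean of *Col5a2* was 6.09 FPKM, against 4.98 ± 2.05 FPKM over all libraries.

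The fibrillar sum and the summed fibroblast markers had the same order of libraries, S38, S44 and S52 from high to low. Single fibroblast markers differed, and 3 of the 8 (*Dcn*, *Fbln1* and *Scara5*) had that order. *Dcn*, the decorin gene whose product binds collagen fibrils, was at 47.4, 35.5 and 19.8 FPKM and had the largest share of the lower sum in S52. *Pdgfra*, at 7.13, 5.86 and 7.72 FPKM, and *Tcf21*, at 13.1, 13.5 and 13.6 FPKM, were highest in S52. All 8 fibroblast markers reached 1 FPKM in S38, and 7 did so in S44 and in S52. Whether fibroblast transcripts account for the fibrillar values was not tested. The remaining fibrillar members were below 1 FPKM in every library. *Col11a2* averaged 0.423 ± 0.145 FPKM, *Col5a3* 0.375 ± 0.210 FPKM and *Col27a1* 0.283 ± 0.179 FPKM, and each was above 0 in all libraries. The cartilage collagen gene *Col2a1* was at 0.165 FPKM in S38 and listed at 0 in the others, as was *Col11a1* at 0.0370 FPKM in S38. *Col24a1* was listed at 0 in all 3. The 5 chondrocyte markers were all below 1 FPKM, with summed levels of 0.392 to 0.804 FPKM, and *Matn1* was listed at 0 throughout.

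The other collagens summed to 45.8, 38.5 and 41.3 FPKM, or 10.2% ± 1.18 (SD, n = 3) of the collagen sum, of which the type VI chains held the larger part with 6.24% ± 1.26 (SD, n = 3). Type VI collagen forms beaded microfilaments that link basement membranes to the surrounding matrix. *Col6a1* was at 11.7, 10.8 and 17.3 FPKM (mean 13.3 ± 3.56) and *Col6a2*, its neighbour on chromosome 10, at 12.1, 9.42 and 8.70 FPKM (mean 10.1 ± 1.82). *Col6a3*, which encodes the longest of the usual chains, was at 2.96, 1.74 and 1.91 FPKM (mean 2.202 ± 0.659), below both others in every library. *Col6a1* was highest in S52, the library with the lowest *Col6a2*, although rescaling to equal sums made S44 the lowest for *Col6a2*. *Col6a6* (0.0110 FPKM) and *Col6a5* (0.00838 FPKM) were above 0 in S44 alone, with an estimated 3.798 and 3.05 fragments, and *Col6a4* was listed at 0. *Col6a5* and *Col6a6* share 320 windows of 51 bases, the read length, so fragments of these genes could be assigned to either. No detected collagen shares such a window with another collagen. The reads carry no strand, so those in exons that overlap another annotated gene, 65 bases in *Col4a2*, 141 in *Col3a1* and 212 in *Col5a1*, cannot be told apart by gene.

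Collagens that decorate fibrils with interrupted helices, the FACIT group, included *Col12a1* at 7.31, 7.74 and 3.99 FPKM (mean 6.35 ± 2.05) and *Col14a1* at 1.73, 1.42 and 1.13 FPKM (mean 1.43 ± 0.299). Both were lowest in S52. *Col16a1* was at 0.573, 0.628 and 1.37 FPKM and *Col20a1* at 0.907, 0.393 and 0.809 FPKM, with means under 1 FPKM. *Col9a3* was at 0.448 ± 0.153 FPKM in the mean, *Col9a2* and *Col9a1* were at 0.178 FPKM or less in each library and listed at 0 in S52, and *Col19a1* and *Col22a1* were listed at 0 in all libraries. For the 4 members listed at 0 throughout, a true count of 0 allows up to 0.00869 to 0.0217 FPKM by gene and library (3 fragments, counting error only). A listed 0 can also be a failed estimate, for which this limit does not hold.

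Collagens that span the cell membrane were represented by *Col13a1* and *Col23a1*. *Col13a1* was at 3.81, 3.11 and 1.48 FPKM (mean 2.80 ± 1.19), the widest range of any detected collagen (2.57-fold). *Col23a1* was at 2.27, 1.28 and 1.47 FPKM (mean 1.67 ± 0.526), above 1 FPKM in each library. *Col17a1*, the hemidesmosome collagen of epithelium, averaged 0.279 ± 0.227 FPKM, and *Col25a1* was above 0 only in S44, at 0.0581 FPKM. *Col8a1*, a short-chain network collagen of vessel walls, was at 1.05, 0.650 and 1.58 FPKM, so its mean of 1.10 ± 0.468 FPKM rests on S52 and was 0.851 FPKM without that library. Its partner *Col8a2* averaged 0.205 ± 0.165 FPKM. The last members, *Col28a1* (0.206 ± 0.111 FPKM), *Col7a1* of anchoring fibrils (0.0606 ± 0.0607 FPKM), the growth plate collagen *Col10a1* (0.0551 FPKM) and *Col26a1* (0.00335 FPKM), are given by their means.

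Ratios within a library do not depend on how the libraries are scaled, and pairs of collagen genes were therefore compared in each library as log2 ratios of FPKM. Most pairs are chains of 1 collagen type, while *Col3a1* with *Col1a1* and *Col18a1* with *Col15a1* are of different types. The common type IV trimer holds 2 chains from *Col4a1* and 1 from *Col4a2*. The log2 ratio of *Col4a2* to *Col4a1* was -0.85, -0.89 and -0.57, or -0.77 ± 0.17 (SD, n = 3), which as a plain ratio is 0.556, 0.541 and 0.672. The usual type I trimer likewise holds 2 chains from *Col1a1* and 1 from *Col1a2*, and here the ratio had the opposite sign. Trimers count protein chains, while FPKM gives RNA levels, and protein was not measured in these libraries. *Col1a2* exceeded *Col1a1* by 0.84, 0.78 and 1.06 on the log2 scale, or 0.89 ± 0.15 (SD, n = 3). Between *Col3a1* and *Col1a1* the log2 ratio was 0.51, 0.79 and 0.36. The gene models behind the FPKM values are not given in the sources used here, and a gene length that differs from the true transcripts would shift such a ratio in all libraries alike.

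Other ratios differed more between libraries than these. The log2 ratio of *Col5a2* to *Col5a1* was 1.14, 1.35 and -0.27, and its mean of 0.74 became 1.25 without S52, 0.43 without S44 and 0.54 without S38. For *Col6a2* against *Col6a1* it was 0.058, -0.19 and -0.996, so the mean of -0.38 was -0.068 without S52 and -0.59 without S38. For *Col18a1* against *Col15a1* it was 0.65, -0.45 and 1.36, with a mean of 0.52 that was 0.10 without S52 and 1.005 without S44. *Col6a3* was below *Col6a1* in all 3 libraries, by log2 ratios of -1.98, -2.63 and -3.18.

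**Figure D3:**
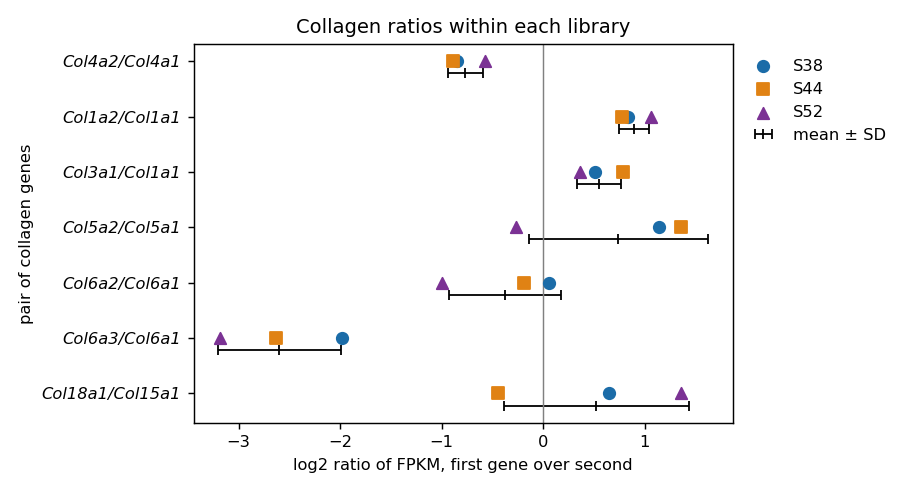
Log2 ratio of FPKM between pairs of collagen genes that were at 1 FPKM or above in every library; points are libraries and the bars below them the mean ± SD (n = 3). The type IV pair lies left of 0 and the type I pair right of 0 in every library, while *Col5a2*/*Col5a1*, *Col6a2*/*Col6a1* and *Col18a1*/*Col15a1* have points on both sides.

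The spread between libraries was described for the 17 detected collagens by the highest over the lowest library. It exceeded 2-fold for 4 of them (23.5%), *Col13a1*, *Col5a2*, *Col8a1* and *Col18a1*, against 20.1% of all detected genes. Without S52 no detected collagen exceeded 2-fold, without S44 the number was 2, and it was 7 when the libraries were rescaled to equal sums of FPKM. The shares of all detected genes over 2-fold under these settings were not computed. The median SD of the detected collagens was 26.9% of the mean, and over all detected genes it was 17.6%. S52 was the lowest library for 10 of the 17 (58.8%), against 46.3% of all detected genes, and S44 for the other 7 (41.2%, against 28.4%). S38 was lowest for none of the 17, against 25.4% of all detected genes. With libraries rescaled to equal sums, S52 was lowest for 8 of the 17 and S44 for 9, against 40.5% and 55.6% of all detected genes, and S38 again for none, against 3.88%. S52 was the highest library for 4 of the 17, against 3992 of the 11770 detected genes. The 4 were *Col6a1*, *Col18a1* and *Col8a1*, and *Col5a1* as deposited but not with equal sums. Those 4 genes were lowest in S44, which also had the lowest summed mural level, 134 FPKM against 228 in S38 and 215 in S52. The mural marker *Pdgfrb*, the PDGF receptor of pericytes, was at 6.47, 4.80 and 10.1 FPKM, and *Rgs5* at 5.75, 3.31 and 9.11 FPKM. All 8 mural markers were lowest in S44, 4 of them (*Pdgfrb*, *Rgs5*, *Cspg4* and *Notch3*) were highest in S52, and the smooth muscle genes *Acta2*, *Tagln*, *Myh11* and *Des* were highest in S38. The part of mural cells in these values was not tested.

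**Figure D4:**
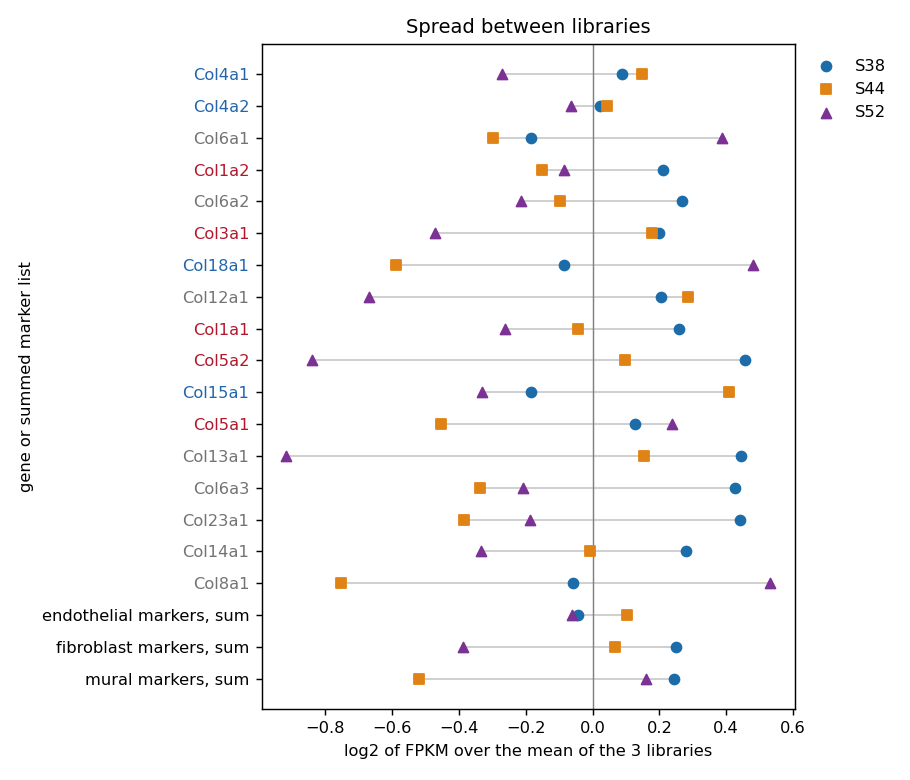
Log2 of each library's FPKM over the mean of the 3 libraries, for the 17 detected collagens and for the summed endothelial, fibroblast and mural markers; grey lines join the lowest and highest library, and name colours give the class (red fibrillar, blue basement membrane, grey other). *Col4a2* has the narrowest range (1.08-fold as deposited) and *Col13a1* the widest (2.57-fold), and *Col6a1*, *Col18a1*, *Col5a1* and *Col8a1* have S52 highest and S44 lowest, though with equal sums S38 is highest for *Col5a1*.

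Of 19 genes for folding, hydroxylation, glycosylation and export of collagen chains, 16 were detected, against the 48.3% of all genes given above, and 12 reached 10 FPKM. The share of all genes that reached 10 FPKM was not computed. This list and the following ones were chosen with earlier results of these data known, so their detected shares may partly reflect that choice. The highest were *P4hb*, the disulfide isomerase that is also a subunit of prolyl 4-hydroxylase, at 239 ± 6.38 FPKM in the mean, and *Serpinh1*, a collagen-specific chaperone of the endoplasmic reticulum, at 166, 167 and 194 FPKM. *Ppib*, a prolyl isomerase, averaged 92.6 ± 6.05 FPKM and *Colgalt1*, a collagen galactosyltransferase, 57.8 ± 5.02 FPKM. The catalytic subunits *P4ha1* and *P4ha2* had overlapping values, 20.7 ± 4.75 and 19.4 ± 1.93 FPKM (SD, n = 3). Below 1 FPKM were *P4ha3* (0.444 ± 0.301 FPKM), *P3h2* (0.377 ± 0.272 FPKM), which modifies type IV chains, and *Mia2* (0.160 FPKM). Summed levels of this list were 783, 799 and 791 FPKM.

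Among 14 genes of extracellular processing and crosslinking, 11 were detected, against 48.3% of all genes, and 4 reached 10 FPKM. *Pxdn*, peroxidasin, which forms the sulfilimine bonds that join type IV networks, was the highest at 99.2, 110 and 68.7 FPKM. *Pcolce2*, an enhancer of procollagen C-proteinase, was at 82.7, 79.3 and 39.98 FPKM, *Pcolce* at 12.9 ± 0.297 FPKM and *Bmp1*, the C-proteinase itself, at 12.0 ± 2.49 FPKM in the mean. *Pxdn* and *Pcolce2* were lowest in S52, as was *Col4a1*. The lysyl oxidase genes were lower, from 4.18 ± 0.317 FPKM for *Loxl2* and 3.94 ± 1.18 FPKM for *Lox* to 1.07 ± 0.544 FPKM for *Loxl4*. In S52 *Loxl4* was at 0.445 FPKM, against 1.44 in S38 and 1.32 in S44, and *Loxl3* was at 0.800 FPKM. *Adamts2*, the procollagen N-proteinase, averaged 1.04 ± 0.523 FPKM and was 0.446 FPKM in S52. *Adamts14* (0.594 ± 0.256 FPKM), *Adamts3* (0.0412 ± 0.0288 FPKM) and *Tll2* (0.0164 FPKM) were not detected.

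Of 12 collagen receptor genes 9 were detected, against 48.3% of all genes. *Itgb1*, the shared beta subunit of the collagen-binding integrins, was at 333, 333 and 363 FPKM. Its alpha partners differed, with *Itga1*, which prefers type IV collagen, at 92.4, 97.0 and 88.0 FPKM and *Itga2* at 21.4, 23.6 and 26.4 FPKM, whereas *Itga10* (0.859 ± 0.348 FPKM) and *Itga11* (0.166 ± 0.138 FPKM) were not detected. *Adgrg1* averaged 40.9 ± 17.1 FPKM and was 21.2 FPKM in S52. *Gp6*, the platelet collagen receptor, was at 29.1, 21.5 and 1.95 FPKM, and the platelet markers named above had the same order of libraries. *Ddr2* and *Ddr1*, the discoidin domain receptors, averaged 4.62 ± 2.12 and 2.36 ± 0.559 FPKM, and *Lair1*, an inhibitory receptor of leukocytes, 0.125 ± 0.0773 FPKM.

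Of the 10 basement membrane partners 9 were detected, against 48.3% of all genes. The highest was *Sparc*, a collagen-binding glycoprotein, at 187, 225 and 282 FPKM. *Lamb2* averaged 50.4 ± 4.73 FPKM, *Nid1* 38.7 ± 9.47 FPKM and *Lama5* 32.2 ± 4.41 FPKM, and *Nid2* was below the threshold at 0.924 ± 0.569 FPKM. *Sparc* was highest in S52, the library in which *Col4a1*, *Nid1* and *Lama5* were lowest.

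**Figure D5:**
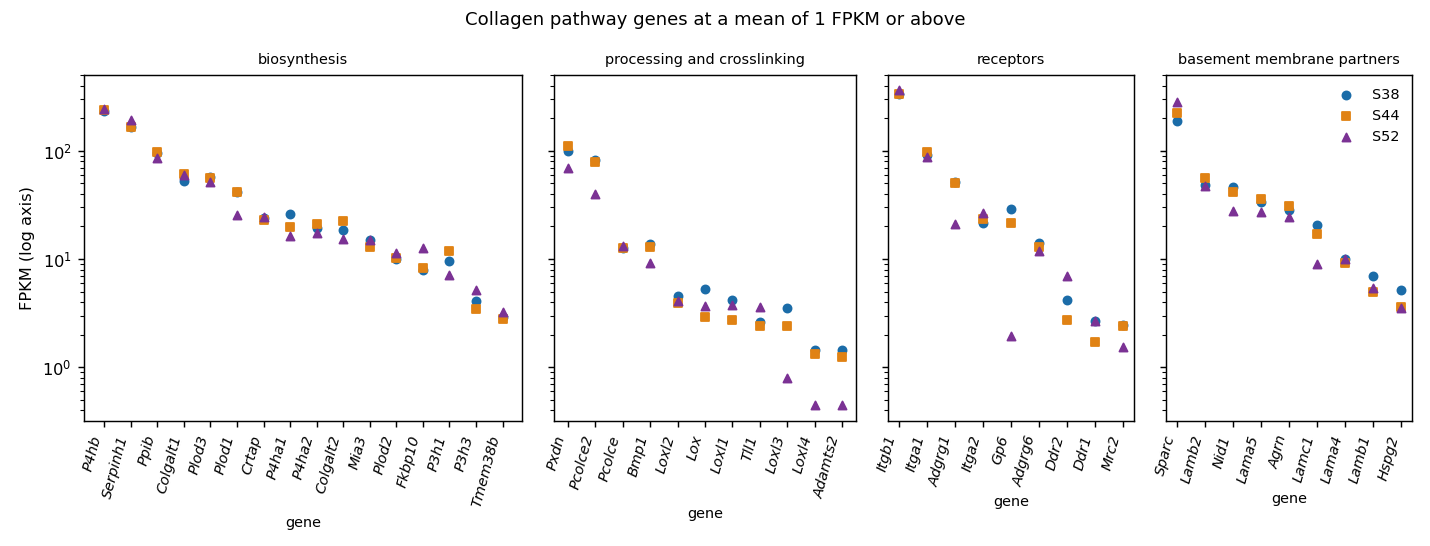
FPKM on a log axis of the detected genes of collagen biosynthesis, extracellular processing and crosslinking, collagen receptors and basement membrane partners; points are the 3 libraries. *P4hb*, *Serpinh1*, *Itgb1* and *Sparc* lie at 166 FPKM or above in every library, and *Gp6* shows the largest gap, at 1.95 FPKM in S52 and 21.5 FPKM or more in the others.

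Fibrillar and basement membrane collagens also differ in gene structure, which the symbols do not use. In 1 GENCODE M21 transcript a gene, the principal one with the longest coding sequence, fibrillar collagens have 21 to 33 coding exons of exactly 54 bases, the length of 6 Gly-X-Y triplets, or 41.2% to 55.0% of their coding exons. Basement membrane collagens have 1 to 3 such exons, or 2.13% to 7.32%, and the other collagens 0 to 28, or 0% to 44.4%. Of the other collagens, *Col22a1* (44.4%), *Col9a2* and *Col9a3* (43.75% each) lie within the fibrillar range. *Col1a2* has 24 of 52 and *Col4a1* 2 of 52. The transcripts of the members are between 2624 and 11511 bases long.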

How the data were processed

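RNA-seq values of 3 libraries of sorted lung ECs were used. The authors deposited FPKM per gene symbol for 24346 genes. Libraries were poly-A selected, without strand, and read as 51-base pairs. The submitters' processing notes name bcl2fastq 2.17, FastQC 0.11.5, Trimmomatic 0.36, TopHat2 2.1.0, Cufflinks 2.2.1 and the mm10 build, while the study's methods describe another aligner and counter for its own tests. The tool and gene annotation behind the deposited FPKM are not given in the sources used here.

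Members were matched by symbol and located in GENCODE M21 (GRCm38), all 44 of them. Means, SDs, shares and log2 ratios were computed in Python 3.11.15 with pandas 2.3.3 and numpy 2.4.6, and plots with matplotlib 3.10.9. Members at a mean of at least 1 FPKM were named with each library's value, the others by range, mean or library values. The classes, pathway lists and cell markers were chosen with earlier results of these data known. Ratios had no pseudocount where both genes reached 1 FPKM in every library. A listed 0 can be a failed estimate and got no ratio. Depth was estimated from the spacing of low FPKM values of 7077 genes with 1 transcript of 800 to 4000 bases, by a search tested on simulated data. Of the low values, 77.3% to 79.9% lay within 0.15 of a whole fragment at the chosen depth, which was searched to fit, so depths and fragment counts are approximate. Intervals and limits cover counting error only. Promoter windows of 300 bases around the start came from RefSeq (GRCm38.p6) and were found for 35 of the 44 members. Gly-X-Y repeats in the proteins were planned and not analysed here. Alternatives were each library left out, 2 rescalings, other thresholds, a pseudocount and another class assignment.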

Additional observations from a re-analysis of the deposited data

How the results depend on the processing

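No paired analysis was possible because the libraries form 1 group and carry no shared replicate numbers. The deposited values of all genes summed to 1153890 FPKM in S38, 1603600 in S44 and 1419350 in S52. Rescaling each library to a sum of 1000000 therefore lowers every level by arithmetic. It took the summed collagen level from 414 FPKM to 303 and raised the collagens with over 2-fold range from 4 to 7. That count was 1 with no filter and a pseudocount of 1 FPKM, and 0 among members at a mean of at least 10 FPKM. Detected collagens numbered 30 at a threshold of 0.1 FPKM and 5 at 10 FPKM, instead of 17, and detected processing and crosslinking genes 4 at 10 FPKM, instead of 11. The shares of all genes for these counts under the changed settings were not computed. With type IV chains alone as basement membrane, the share of that class was 79.1% instead of 81.9%. With each library left out in turn, the collagen sum ranged from 402 to 436 FPKM, the detected collagens from 16 to 18 and the basement membrane share from 81.0% to 82.6%. The log2 ratio of *Col4a2* to *Col4a1* ranged from -0.87 to -0.71 and the count over 2-fold from 0 to 4. Detected biosynthesis genes stayed at 16, processing and crosslinking genes ranged from 9 to 11, receptors from 9 to 10 and basement membrane partners from 9 to 10. Rescaling by the median ratio of 5486 genes left all values it was run on within their limits. The order of libraries under the rescalings was examined after seeing the data. Beyond the lowering by arithmetic, the causes of these shifts were not tested. Depth limits the members below 1 FPKM, of which those above 0 in every library rested on as few as an estimated 6.15 fragments, and 3 libraries limit every SD.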
